A study of Mus musculus with 17 samples.

Results

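The 10 genes described here belong to innate recognition: the Toll-like receptor genes Tlr1, Tlr2, Tlr3, Tlr4, Tlr6, Tlr7, Tlr8, Tlr9 and Tlr13 and the adaptor gene Myd88. They were measured in cells from lung tumors of mice and were chosen by name from 17556 genes listed for 3 cell populations: tumor cells, TRMs and MDMs. The sources used here do not spell out TRM and MDM, abbreviations in common use for tissue-resident and monocyte-derived macrophages, so both populations are called by their labels. All 10 had a row among the 16410 genes of the tumor cells. Tlr9 was not analysed in TRMs and Tlr3 was not analysed in MDMs, which left 9 genes of 13545 and 9 of 13407. Each population was sequenced as poly(A) RNA in 2 KL and 2 KLG4 libraries, 12 in all, and every level below is in RPKM, which divides a gene's reads by its length and by the depth of its library.

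Mice of both genotypes carried Lkb1fl/fl, from which Cre removes Lkb1. KLG4 mice differed from KL mice in also carrying Gpx4m/m, in which rox-flanked exons of Gpx4, a peroxidase that detoxifies lipid peroxides, are cut out by a tamoxifen-dependent Dre recombinase. Dre itself is driven by the CAG promoter and is made only in cells that have received Cre. Mice of both genotypes were given Ad-Cre through the nose and tamoxifen, and cells were isolated 10 weeks after Ad-Cre. Cells that took up no Ad-Cre are meant to keep Gpx4 in both genotypes. The study sorted tumor cells as CD45-CD31-EpCAM+ by FACS, and the gates used for TRMs and MDMs are not given in the sources used here. The description of the tumor cell RNA-seq counts its samples as mice. In the data used here, every tumor cell library held both Xist, an RNA of female cells, and RNA of Y-linked genes. Xist was at 4.17 to 6.18 RPKM, the Y-linked Eif2s3y at 7.27 to 9.26 RPKM and the Y-linked Ddx3y at 8.61 to 17.1 RPKM. Whether each tumor cell library came from a single mouse was not tested, so the spread between these libraries may not be that between mice. For TRMs and MDMs the sources used here do not say whether the 2 libraries of a group came from separate mice, so the spread between them may be technical.

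Toll-like receptors are membrane proteins that recognise conserved microbial molecules, and some products of damaged cells, through a leucine-rich repeat domain. Tlr1, Tlr2, Tlr4 and Tlr6 act mainly at the cell surface, where Tlr2 pairs with Tlr1 or Tlr6 to bind lipopeptides and Tlr4 binds lipopolysaccharide. Tlr3, Tlr7, Tlr8, Tlr9 and Tlr13 act in endosomes on nucleic acids. Myd88 joins the receptors to IRAK kinases and on to NF-kappaB, and it serves all of them except Tlr3, which signals through Ticam1. In the lung these receptors are best known from macrophages, neutrophils and dendritic cells, and several are also made by epithelial cells.

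Depth was 15.9 to 36.6 M counted reads per tumor cell library, 9.14 to 26.8 M per TRM library and 10.4 to 26.1 M per MDM library. In tumor cells, Gpx4 read 95 and 76.8 RPKM in KL against 56.4 and 61.9 RPKM in KLG4, counted over the whole gene and not over the removed exons alone. Gpx4 was also lower in KLG4 in TRMs (89.8 and 88.2 against 53.8 and 57.0 RPKM) and was higher in KLG4 in MDMs (44.9 and 71.3 against 93.6 and 97.7 RPKM). Stk11, the gene of Lkb1, was higher in both KLG4 libraries than in both KL libraries of each population, at 25.9 and 25.8 against 61.6 and 61.6 RPKM in tumor cells. The 2 KLG4 tumor cell libraries were far closer to each other than any other pair, with a chi-square per gene of 3.28 against 28.9 to 131.5. Markers did not all follow the labels. The MDM libraries held the neutrophil genes S100a9 at 9379 to 21106 RPKM and Csf3r at 208 to 323 RPKM, against 24.3 to 41.2 RPKM of the macrophage gene Csf1r. Csf1r was at 15.7 to 47.3 RPKM in TRMs. In MDMs the macrophage genes Cd68 (116 to 134 RPKM), Fcer1g (124 to 153 RPKM) and Lyz2 (1019 to 2596 RPKM) stood above Csf1r. Adgre1 (10.2 to 21.9 RPKM) and Mrc1 (7.58 to 33.8 RPKM) stood below it. The neutrophil genes S100a8 (804 to 1490 RPKM) and Retnlg (172 to 355 RPKM) were also high, but Ly6g was at 5.52 to 7.94 RPKM. MDM KL replicate 2 stood apart, with C1qa at 92.7 RPKM against 16 to 24.4 in the other 3 MDM libraries. Xist, the X-inactivation RNA of female cells, was at 0.839 RPKM in that library against 19.4 to 21.8 RPKM in the other 3, so the 2 KL MDM libraries also differ in the apparent sex of their source. TRM libraries carried the alveolar macrophage genes Chil3 (2953 to 7512 RPKM) and Ear2 (4093 to 4785 RPKM).

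**Figure D1:**
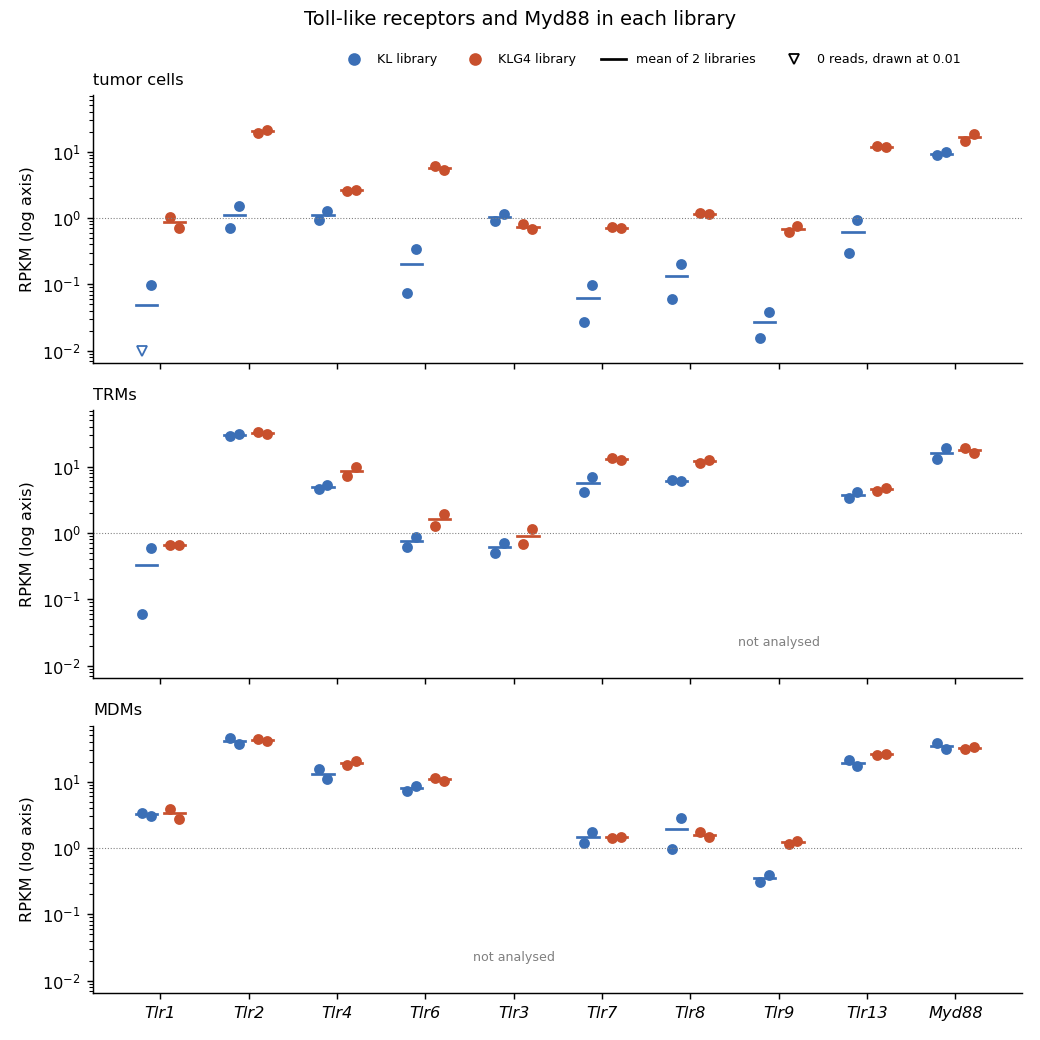
Level of each gene in each of the 12 libraries, in RPKM on a log axis, with 1 panel per population. Points are libraries, short lines are means of 2 libraries, and the dotted line marks 1 RPKM. In tumor cells the KLG4 points lie above the KL points for every gene but Tlr3, whereas KLG4 points lie above KL points for 7 of 9 genes in TRMs and 4 of 9 in MDMs, with most gaps smaller. By the ratio of means, the largest differences there are those of Tlr7 in TRMs and Tlr9 in MDMs.

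The first question was whether receptor transcripts in the tumor cell sort differed between KL and KLG4 mice. Of the 10 genes, 9 were higher in both KLG4 libraries than in both KL libraries, and Tlr3 was lower in both. Among all 16410 rows the corresponding shares were 34.3% and 38.6%. In limma with Benjamini-Hochberg adjustment and no filter on low values, 9 of the 10 genes were called higher at an adjusted p under 0.05, against 21.5% of all genes. The filtered fit keeps genes with at least 1 RPKM in 2 of the 4 libraries, and it tested 6 of the 10. All 6 were called higher, against 20.6% of the 13770 genes tested, but Tlr2, Tlr4, Tlr6, Tlr8 and Tlr13 passed the filter only with the help of their KLG4 libraries, and Myd88 alone through KL as well, so this count carries no weight of its own. Over those genes 2843 were called higher and 2700 lower (19.6%). Quantile scaling moved this split to 2585 higher and 4130 lower, and leaving out mitochondrial genes and their nuclear copies moved it to 3151 and 1965. Fold changes below are on the scale of log2(RPKM + 0.1), which understates those of low genes.

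Tlr2, the shared partner of the lipopeptide receptors, was the most abundant receptor of the KLG4 tumor cell libraries. It was at 0.707 and 1.49 RPKM in KL and at 19.2 and 21.0 RPKM in KLG4, a mean of 1.10 ± 0.56 against 20.1 ± 1.30 (SD, n = 2). The groups were far apart, with a log2 fold change of 4.16 (SE 0.34, limma adjusted p = 0.00075). Tlr2 lies on the minus strand of chromosome 3 (GRCm38, chr3:83836272-83841767). Its promoter window is shown because kappaB sites are the textbook element of genes driven by Toll-like receptor signalling. The capitals mark matches to the kappaB motif on either strand, 5 overlapping matches in 2 separate stretches, and 8.46% of all 32851 RefSeq mouse promoter windows (250 bases before to 50 after a start) hold at least 1.

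Tlr2 promoter, chr3:83841559-83841858, minus strand, GRCm38.p6: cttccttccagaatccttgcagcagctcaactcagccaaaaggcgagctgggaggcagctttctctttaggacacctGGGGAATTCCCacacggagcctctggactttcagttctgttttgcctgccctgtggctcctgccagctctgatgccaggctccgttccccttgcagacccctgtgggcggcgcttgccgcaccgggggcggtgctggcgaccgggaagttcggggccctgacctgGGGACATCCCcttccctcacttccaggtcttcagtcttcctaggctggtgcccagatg

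Tlr6, which pairs with Tlr2, was at 0.073 and 0.337 RPKM in KL and at 6.16 and 5.26 RPKM in KLG4. These KL values rest on 10 and 38 reads. Its log2 fold change was 4.4 (SE 0.46, limma adjusted p = 0.0016), or 2.48 with a pseudocount of 1. Tlr1, the other partner of Tlr2, was listed at 0 and 0.099 RPKM in KL and at 1.03 and 0.695 RPKM in KLG4, and it passed only the fit without a filter (log2 fold change 2.75, limma adjusted p = 0.0037). Tlr1 and Tlr6 are neighbours on chromosome 5 (chr5:64924679-64933563 and chr5:64952031-64960097, minus strand). They shared 454 exact stretches of 50 bases, 13.6% of those of Tlr1 and 12.3% of those of Tlr6. A read wholly within shared sequence could not be assigned to 1 gene, and the share of such reads was not tested. No other pair among the 10 genes shared any such stretch.

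Tlr4, the lipopolysaccharide receptor, changed less than the other surface receptors. It was at 0.929 and 1.27 RPKM in KL and at 2.55 and 2.66 RPKM in KLG4. The groups did not overlap, and the log2 fold change was 1.19 (SE 0.23, limma adjusted p = 0.012), or 0.78 with a pseudocount of 1. The difference kept its size when either KLG4 library was left out (1.22 without replicate 1 and 1.16 without replicate 2), but with 1 library in that arm the call did not hold (limma adjusted p = 0.063 and 0.079).

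Of the endosomal receptors, Tlr13, which recognises bacterial ribosomal RNA, reached the highest level in KLG4. It was at 0.294 and 0.923 RPKM in KL and at 12.2 and 11.6 RPKM in KLG4 (log2 fold change 4.24, SE 0.45, limma adjusted p = 0.0017). It was the second most abundant receptor of the KLG4 libraries behind Tlr2, at 26.0% to 27.5% of their summed receptor RPKM. Tlr13 is on the plus strand of the X chromosome (GRCm38, chrX:106143204-106160493). Its promoter window is shown because GAGGAA, in capitals, is the core read by PU.1, a transcription factor of myeloid cells. The letters GAGGAA occur on either strand in 28.3% of all windows, so a match is common.

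Tlr13 promoter, chrX:106143025-106143324, plus strand, GRCm38.p6: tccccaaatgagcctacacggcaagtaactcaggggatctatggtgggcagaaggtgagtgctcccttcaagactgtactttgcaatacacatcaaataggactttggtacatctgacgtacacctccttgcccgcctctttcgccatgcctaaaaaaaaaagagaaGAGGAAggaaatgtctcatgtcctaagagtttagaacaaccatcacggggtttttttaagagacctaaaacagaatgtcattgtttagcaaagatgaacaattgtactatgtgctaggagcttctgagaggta

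Tlr8, a sensor of RNA breakdown products, was at 0.061 and 0.203 RPKM in KL and at 1.17 and 1.16 RPKM in KLG4 (log2 fold change 2.52, SE 0.38, limma adjusted p = 0.0052). The size of this change depended on the scale, at 0.94 with a pseudocount of 1 and 1.02 with quantile scaling (limma adjusted p = 0.0016 and 0.043). Its window on the minus strand of the X chromosome (chrX:167264280-167264579) also held 1 GAGGAA, and the window of Tlr9 held 2. Tlr7, its neighbour and a receptor for single-stranded RNA, was at 0.027 and 0.097 RPKM in KL and at 0.722 and 0.708 RPKM in KLG4. Tlr9, the receptor for unmethylated CpG DNA, was at 0.016 and 0.038 RPKM in KL, from 2 and 4 reads, and at 0.619 and 0.759 RPKM in KLG4. Neither Tlr7 nor Tlr9 reached 1 RPKM in any tumor cell library, and without a filter both were called higher (limma adjusted p = 0.0021 and 0.00085).

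Tlr3, the receptor for double-stranded RNA and the one that does not use Myd88, ran the other way. It was at 0.913 and 1.14 RPKM in KL and at 0.805 and 0.676 RPKM in KLG4. The groups did not overlap, but the difference of -0.42 on the log2 scale did not pass the unfiltered fit (limma adjusted p = 0.23). The antisense gene Gm45542 overlaps Tlr3, and the library kit keeps no strand, so reads in the overlap cannot be told apart.

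Myd88 was the most abundant of the 10 genes in the KL tumor cell libraries and passed the filter in both genotypes. It was at 8.98 and 9.73 RPKM in KL and at 14.6 and 18.5 RPKM in KLG4, a mean of 9.35 ± 0.53 against 16.5 ± 2.72 (SD, n = 2). The log2 fold change was 0.81 (SE 0.16, limma adjusted p = 0.014), smaller than that of any receptor called. Without KLG4 replicate 2 the difference was 0.64 and, with 1 library in that arm, did not pass (limma adjusted p = 0.16), in a fit that also lowered the calls over all genes from 5543 to 1843. Myd88 lies on chromosome 9 (chr9:119335934-119341411, minus strand), where its exons overlap those of Acaa1a on the opposite strand. Reads in the overlap cannot be told apart, which makes its level less certain. Its promoter window is shown for 1 match, in capitals, to GAAA, any 2 bases and GAAA again, the pattern of interferon response elements, which 3.44% of all windows hold.

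Myd88 promoter, chr9:119339969-119340268, minus strand, GRCm38.p6: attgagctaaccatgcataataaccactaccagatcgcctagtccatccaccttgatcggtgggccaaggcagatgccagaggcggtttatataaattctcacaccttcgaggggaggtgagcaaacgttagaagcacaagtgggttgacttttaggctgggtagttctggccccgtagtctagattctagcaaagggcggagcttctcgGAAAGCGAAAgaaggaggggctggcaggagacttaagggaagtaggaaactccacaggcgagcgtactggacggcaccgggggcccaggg

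No kappaB motif was found in the windows of Tlr13 or Myd88, and no GAGGAA in those of Tlr2 or Myd88. Whether motifs go with direction was not tested. The window of Tlr3, which ran lower without being called, held 1 kappaB match. A window of Tlr6 held 2 overlapping matches to the interferon response pattern, a window of Tlr1 held 1 GAGGAA, and the window of Tlr9 held 1 TGAGTCA, the AP-1 element found in 5.2% of all windows. Promoter windows of Tlr4 and Tlr7 were not analysed. A match is a string of letters and not a measured binding site.

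**Figure D2:**
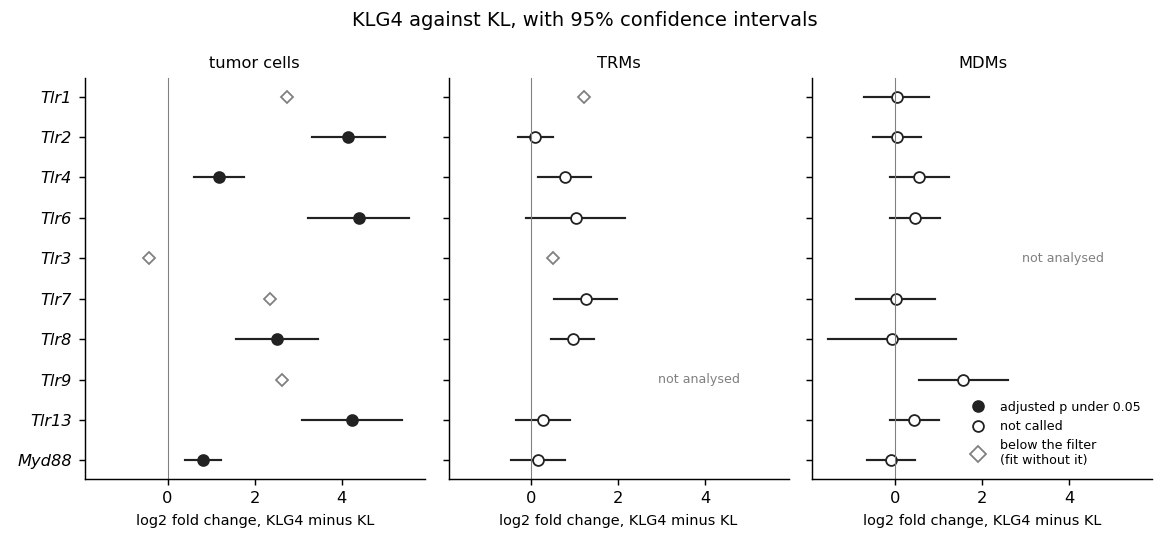
Log2 fold change of KLG4 over KL for each gene, with 1 panel per population and lines for the 95% confidence interval of limma. Filled circles have an adjusted p under 0.05, open circles do not, and diamonds are genes below the filter, taken from the fit without it. The 6 filled circles are all in tumor cells, from 0.81 for Myd88 to 4.4 for Tlr6.

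Most lists of leukocyte and other non-epithelial genes moved in the same libraries as the receptors. Ptprc, which encodes CD45, the surface protein by which leukocytes were to be left out of the sort, read 0.834 and 2.06 RPKM in KL tumor cells against 26.7 and 27.4 RPKM in KLG4 tumor cells. All 5 leukocyte markers were called higher, against 20.6% of all genes, although Ptprc and Laptm5 needed their KLG4 libraries to pass the filter, and their summed level was 12.9 and 21.3 RPKM in KL and 165.2 and 174.5 RPKM in KLG4. The 4 neutrophil markers analysed went from 177.8 and 270.3 RPKM to 2239 and 2141 RPKM in sum, the 6 macrophage markers from 229.0 and 289.5 RPKM to 875.4 and 907.6 RPKM, and the 5 B cell markers from 0.862 and 1.08 RPKM to 5.77 and 5.34 RPKM. The 5 T cell markers went from 0.220 and 0.219 RPKM to 16.1 and 17.6 RPKM in sum. The 5 fibroblast markers had sums of 9.22 and 13.5 RPKM in KL and 334.8 and 333.3 RPKM in KLG4. Of these, Col1a1, Col3a1 and Dcn passed the filter in both genotypes and were called higher, whereas Pdgfra and Lum passed only through KLG4. The 5 endothelial markers had sums of 9.67 and 5.82 RPKM against 13.6 and 13.8 RPKM. Of these Pecam1, Kdr and Tek were called higher, and Cdh5 and Cldn5 were not called. The 3 plasmacytoid dendritic cell markers analysed went the other way in sum, from 21.7 and 10.8 RPKM to 7.01 and 6.09 RPKM. Most of that sum was Ly6d, which was called lower, whereas Ccr9 and Pacsin1 were higher in both KLG4 libraries. No marker of these lists was at 0 in all 4 libraries. The 7 epithelial and alveolar type II markers were all called lower, against 19.6% of all genes, with sums of 9193 and 7583 RPKM in KL and 3592 and 3624 RPKM in KLG4. In bulk RNA, more cells of a type and more RNA per cell cannot be told apart, and the part of these cells in the receptor levels was not tested.

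Set against Ptprc within each library, the 10 genes fell into different patterns. Ptprc itself was far higher in KLG4, so a gene at the same level in all 4 libraries would stand 22.8 times higher per Ptprc in KL, with the ratios averaged over libraries. Among all tested genes, 95.3% were higher per Ptprc in both KL libraries than in both KLG4 libraries and 2.4% were lower. Those shares cover the 13770 genes that passed the filter, which Tlr1, Tlr3, Tlr7 and Tlr9 did not. Of the 10 genes 5 were higher in KL, 2 were lower and 3 overlapped. Tlr2 stood at 0.848 and 0.723 of the Ptprc level in KL and at 0.719 and 0.770 in KLG4, so the genotypes overlapped. Tlr13 overlapped as well, at 0.353 and 0.447 in KL and 0.457 and 0.424 in KLG4. Tlr6 was lower in KL (0.088 and 0.163 against 0.230 and 0.192), as was Tlr9 (0.0188 and 0.0184 against 0.0232 and 0.0277). The KL values rest on 10 and 38 reads for Tlr6 and on 2 and 4 reads for Tlr9, so these differences are uncertain.

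The ratio was higher in KL for Tlr4, Tlr3 and Myd88, for Tlr7 and for Tlr8. Tlr4 stood at 1.11 and 0.614 of the Ptprc level in KL and at 0.0954 and 0.0971 in KLG4. Tlr3 stood at 1.09 and 0.554 in KL and at 0.0301 and 0.0247 in KLG4. Myd88 stood at 10.8 and 4.71 in KL and at 0.547 and 0.675 in KLG4. Averaged over libraries, the ratio was 8.98 times higher in KL for Tlr4, 12.7 times for Myd88 and 30.1 times for Tlr3, against 1.06 times for Tlr2. The values of Tlr4 and Myd88 lie below the 22.8 times of a gene with no change, and that of Tlr3 above it. Tlr7 and Tlr8 lay between, at 1.5 and 1.99 times. Tlr3 and Tlr4 also took a larger share of the receptor signal in KL. Tlr3 and Tlr4 gave 30.2% and 30.8% of the summed receptor RPKM in KL replicate 1, 20.4% and 22.6% in KL replicate 2, and at most 1.81% and 5.96% in the KLG4 libraries.

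**Figure D3:**
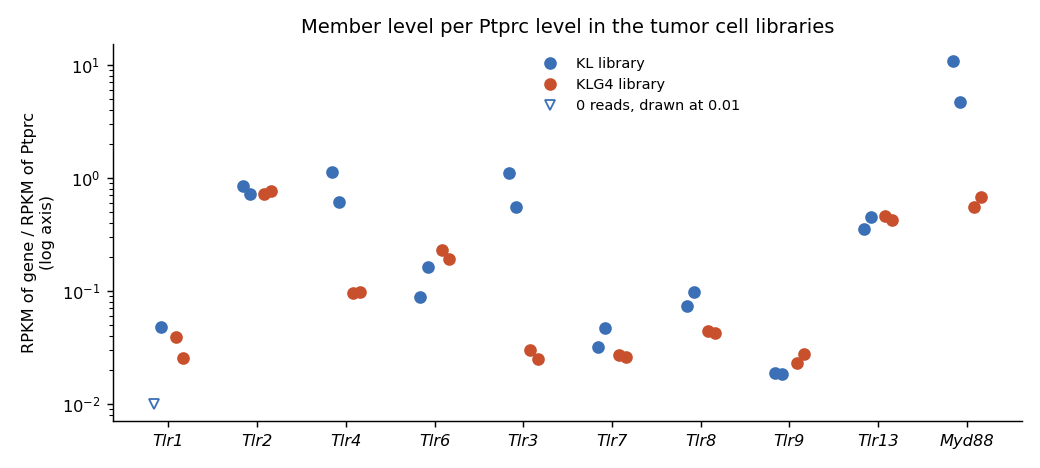
Level of each gene divided by the level of Ptprc in the same tumor cell library, on a log axis. Points are libraries. Tlr2 and Tlr13 sit at like heights in KL and KLG4, whereas Tlr3, Tlr4 and Myd88 sit higher in KL, as a gene with no change would (22.8 times, averaged over libraries).

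The second question was whether the genes differed with tumor genotype in TRMs. None of the 7 genes tested was called in the filtered fit, against 1.8% of 10990 genes, and 3 of the 7 had an unadjusted p under 0.05, against 28.3%. limma-voom on the recovered reads called 2 of the 7, against 18.2% of all genes. KLG4 values exceeded KL values in every pairing of libraries for 7 of the 9 genes analysed, and for 49% of all 13545 rows. The median of all tested genes was itself 0.38 above 0 on the log2 scale and fell to 0.00 once mitochondrial genes and their nuclear copies were left out. Those genes took 31.5% and 22.3% of the reads in KL and 2.95% and 5.78% in KLG4. Calls over all genes were 150 higher (1.36%) and 48 lower, which became 23 and 37 with quantile scaling, 32 and 35 outside mitochondrially encoded genes, and 7 and 22 outside the copies as well.

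Tlr7, Tlr6 and Tlr8 were the members furthest above that median. Tlr7 was at 4.21 and 7.10 RPKM in KL and at 13.5 and 12.8 RPKM in KLG4, with a log2 fold change of 1.25 (95% confidence interval 0.53 to 1.97, limma adjusted p = 0.077), or 0.87 above the median of all genes. Tlr8 was at 6.22 and 6.07 RPKM in KL and at 11.5 and 12.4 RPKM in KLG4, with a log2 fold change of 0.95 (0.46 to 1.44, limma adjusted p = 0.065), or 0.57 above the median, and its difference was 0.57 with quantile scaling too. Neither passed the filtered fit, although the genotypes did not overlap. Both passed with limma-voom on the recovered reads (adjusted p = 0.0077 for Tlr7 and 0.017 for Tlr8) and when KL replicate 2 was left out (0.014 and 0.035). That last fit leaves 1 KL library, assumed to vary like the KLG4 ones, and it also raised the calls over all genes from 198 to 2631.

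A ratio of 2 genes within a library does not depend on how libraries are scaled. Tlr7 was 1.23 and 1.71 times the level of Tlr13 in the KL TRM libraries and 3.13 and 2.65 times in the KLG4 ones. Tlr8 was 1.81 and 1.46 times the level of Tlr13 in KL and 2.67 and 2.58 times in KLG4. All 3 genes lie on the X chromosome, and Tlr7 and Tlr8 lie next to each other there (chrX:167304929-167330558 and chrX:167242696-167264329, minus strand). For TRMs, KL replicates 1 and 2 had Xist levels of 0.257 and 0.501 RPKM, KLG4 replicates had 18.3 and 20.2 RPKM, and the Y-linked Ddx3y stood at 10.3 and 11.8 RPKM in KL but 0.014 and 0 RPKM in KLG4. Sex of the source animals and genotype cannot be told apart in TRMs. Ptprc in TRMs did not overlap between genotypes either (31.1 and 42.3 against 74.5 and 74.1 RPKM, log2 fold change 1.03, limma adjusted p = 0.059), and per Ptprc the genotypes overlapped for Tlr8 (0.200 and 0.143 against 0.155 and 0.168). Tlr7 per Ptprc was slightly lower in both KL libraries, at 0.136 and 0.168 against 0.182 and 0.172.

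Tlr4 and Tlr6 were higher in both KLG4 TRM libraries. Tlr4 was at 4.68 and 5.34 RPKM in KL and at 7.35 and 9.97 RPKM in KLG4 (log2 fold change 0.76, limma adjusted p = 0.12). Tlr6 was at 0.617 and 0.881 RPKM in KL and at 1.29 and 1.96 RPKM in KLG4, and it passed the filter only through KLG4 (log2 fold change 1.02, limma adjusted p = 0.21), or 0.63 above the median of all genes. Neither passed the test, and quantile scaling lowered the differences to 0.36 for Tlr4 and 0.47 for Tlr6.

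Tlr2 was by far the highest receptor in TRMs and nearly level, at 29.2 and 31.4 RPKM in KL and 32.9 and 31.6 RPKM in KLG4. Its difference of 0.09 on the log2 scale (95% confidence interval -0.31 to 0.49) fell below 0 with quantile scaling and when mitochondrial genes were left out. Tlr13 was at 3.43 and 4.15 RPKM in KL and at 4.32 and 4.81 RPKM in KLG4 (log2 fold change 0.27, limma adjusted p = 0.51), and this fell below 0 with quantile scaling and when mitochondrial genes and their nuclear copies were left out. Myd88 overlapped between genotypes, at 13.1 and 19.4 RPKM against 19.3 and 16 RPKM, with an interval of -0.48 to 0.76. Tlr1 (0.060 and 0.589 against 0.670 and 0.661 RPKM) and Tlr3 (0.499 and 0.714 against 0.681 and 1.14 RPKM) were below the filter.

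The third question was the same comparison in MDMs. None of the 9 genes analysed was called, and neither was any of the 10475 genes tested (0%). At an unadjusted p under 0.05 there was 1 of the 9 members and 706 genes in all, or 6.74%. limma-voom on the recovered reads also called 0 genes. KLG4 values exceeded KL values in every pairing of libraries for 4 of the 9 genes and for 22.5% of all rows. Without KL replicate 1 the fit called 2592 genes and 3 members, Tlr4, Tlr9 and Tlr13. Without KL replicate 2, the library that stood apart, it called 0 genes, with 1371 at an unadjusted p under 0.05.

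Tlr9 was the member with the unadjusted p under 0.05. It was at 0.310 and 0.388 RPKM in KL, from 20 and 14 reads, and at 1.16 and 1.28 RPKM in KLG4, and it passed the filter only through KLG4. Its log2 fold change was 1.56 (SE 0.39, limma adjusted p = 0.68), or 0.72 with a pseudocount of 1. Among the 5 markers of B cells, which carry much Tlr9, none was analysed in MDMs. Of the plasmacytoid dendritic cell markers only Ccr9 was analysed, at 0.019 to 0.158 RPKM.

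Tlr13, Tlr4 and Tlr6 were slightly higher in both KLG4 libraries. Tlr13 was at 21.4 and 17 RPKM in KL and at 25.3 and 26.6 RPKM in KLG4 (log2 fold change 0.44, 95% confidence interval -0.13 to 1.01). Tlr4 was at 15.5 and 10.9 RPKM in KL and at 18.1 and 20.2 RPKM in KLG4 (0.55, -0.13 to 1.23). Tlr6 was at 7.29 and 8.61 RPKM in KL and at 11.5 and 10.4 RPKM in KLG4 (0.46, -0.11 to 1.04). All 3 intervals include 0, and the limma adjusted p was 0.68 for each.

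Tlr2, Myd88, Tlr1, Tlr7 and Tlr8 overlapped between genotypes in MDMs. Tlr2 was at 46.1 and 37.0 RPKM in KL and 44.6 and 40.8 RPKM in KLG4, the highest receptor here as well. Myd88 was at 38.1 and 30.8 RPKM in KL and 31.4 and 32.9 RPKM in KLG4. Intervals of the log2 fold change ran from -0.51 to 0.60 for Tlr2 and from -0.64 to 0.45 for Myd88, so a change beyond those sizes was not seen. Tlr1 was at 3.37 and 3.05 RPKM against 3.89 and 2.76 RPKM, and Tlr7 at 1.17 and 1.75 RPKM against 1.40 and 1.49 RPKM. Tlr8 varied most between KL libraries, at 0.977 RPKM in replicate 1 and 2.85 RPKM in replicate 2, the library with the highest C1qa and the lowest Xist, and was at 1.75 and 1.45 RPKM in KLG4.

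Levels were then set side by side across populations, as a description, since each population was normalized in its own table. Of the 8 genes analysed in both TRMs and MDMs, 2 were higher in all 4 TRM libraries than in all 4 MDM libraries and 6 were lower. Tlr1 was below the filter in TRMs, which leaves 2 and 5 of the 7 tested in both, and among all 9283 genes tested in both these shares were 26.7% and 21.1%. The split stayed at 2 and 6 when mitochondrially encoded genes were left out of the totals. The pair that was higher in TRMs was Tlr7, at 4.21 to 13.5 RPKM against 1.17 to 1.75 RPKM, and Tlr8, at 6.07 to 12.4 RPKM against 0.977 to 2.85 RPKM. By the ratio of means Tlr7 was 3.87 times higher in KL and 9.10 times in KLG4, and Tlr8 was 3.21 times higher in KL and 7.49 times in KLG4.

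The 6 genes that were higher in MDMs were Tlr1, Tlr2, Tlr4, Tlr6, Tlr13 and Myd88. By the ratio of means over both genotypes Tlr6 was 7.96 times, Tlr1 6.60 times, Tlr13 5.40 times, Tlr4 2.37 times, Myd88 1.97 times and Tlr2 1.35 times higher. Tlr2 differed least and its ranges nearly met, at 29.2 to 32.9 RPKM in TRMs and 37.0 to 46.1 RPKM in MDMs. The ratio of Tlr7 to Tlr13 within a library, which is free of scaling, was 1.23 to 3.13 in TRMs and 0.055 to 0.103 in MDMs. In the tumor cell libraries it was 0.091 and 0.105 in KL and 0.059 and 0.061 in KLG4. Csf3r was 5.90 to 9.41 times the level of Csf1r in MDM libraries, 4.72 and 4.64 times in the KLG4 tumor cell libraries, 1.06 and 2.86 times in the KL tumor cell libraries, and 0.028 to 0.256 times in TRM libraries. The part of neutrophil RNA in these differences was not tested.

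The order of mean levels over the 4 libraries also differed by population. In MDMs it ran from Tlr2 through Tlr13 and Tlr4 to Tlr6, Tlr1, and then Tlr8, Tlr7 and Tlr9. The ranges over the 4 libraries overlapped between all neighbours in that order except Tlr2 and Tlr13, and Tlr6 and Tlr1. In TRMs it ran from Tlr2 through Tlr7 and Tlr8 to Tlr4, Tlr13, Tlr6 and then Tlr3 and Tlr1, although in KL alone Tlr8 stood above Tlr7 (means of 6.15 and 5.66 RPKM). There the ranges of neighbours overlapped except for Tlr2 and Tlr7, and Tlr13 and Tlr6. Tlr2 gave 41.9% to 59.7% of the summed receptor RPKM in TRMs and 38.8% to 48.0% in MDMs. Tlr13 gave 20.9% to 25.4% in MDMs and 5.98% to 7.39% in TRMs. The summed receptor level was 48.9 to 75.3 RPKM in TRMs, 81.5 to 107.7 RPKM in MDMs, 3.02 and 5.60 RPKM in KL tumor cells and 44.5 and 44.6 RPKM in KLG4 tumor cells.

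**Figure D4:**
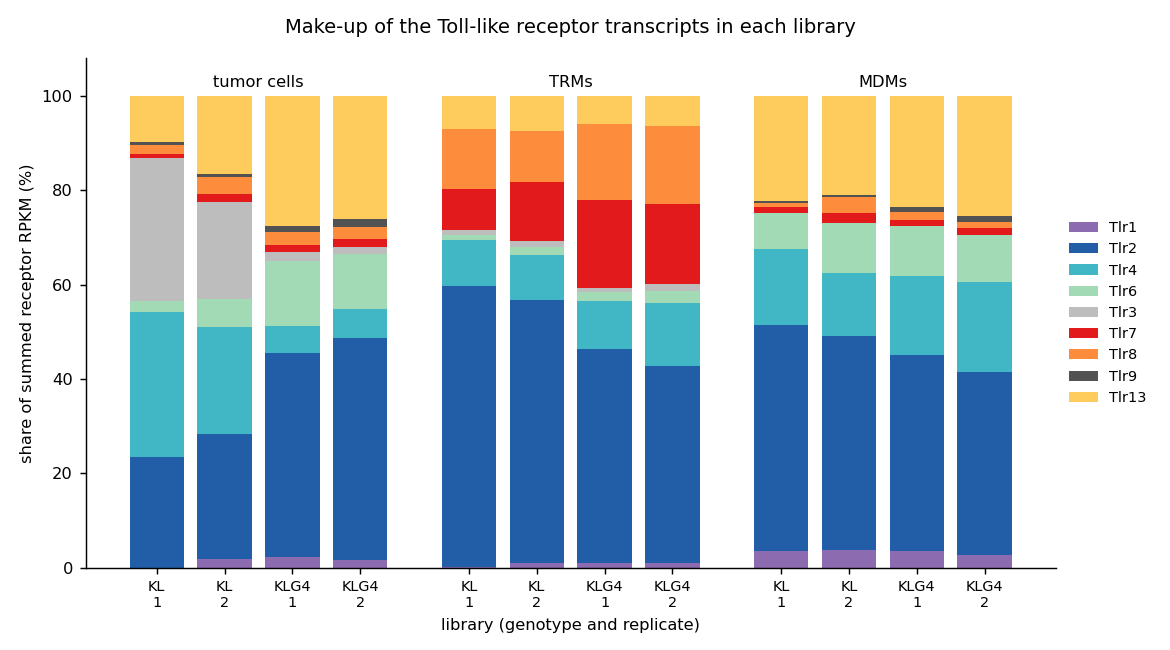
Share of each receptor in the summed RPKM of the receptors analysed, in percent, for each of the 12 libraries. Each bar is 1 library and adds up to 100. Red and orange (Tlr7 and Tlr8) are wide in TRMs and narrow elsewhere, and grey and turquoise (Tlr3 and Tlr4) are wide in the KL tumor cell libraries.

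Other genes of the pathway were counted from lists of 42 genes: other Toll-like receptors, co-receptors, chaperones, adaptors, kinases, transcription factors and restraining genes. In tumor cells 36 were tested, 12 were called higher and 2 lower, against 20.6% and 19.6% of all genes, and their median log2 fold change was 0.34 against -0.09 over all genes. In TRMs 36 were tested, 1 was called higher, against 1.36% of all genes, and 0 lower, with a median of 0.49 against 0.38. In MDMs 35 were tested and 0 were called, with a median of 0.16 against 0.02, and 2 had an unadjusted p under 0.05. Tlr5, which binds flagellin, was analysed in MDMs alone, at 0.202 and 0.845 RPKM in KL and 0.256 and 0.217 RPKM in KLG4.

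Among partners at the surface, 3 of 5 tested rose in tumor cells and 1 fell, against 20.6% and 19.6% of all genes. Cd14, which hands lipopolysaccharide to Tlr4, was at 14.3 and 19.2 RPKM in KL and at 123.5 and 130.6 RPKM in KLG4 (log2 fold change 2.93, limma adjusted p = 0.00034). Ly96, which encodes MD-2, the protein that holds lipopolysaccharide on Tlr4, was at 2.57 and 1.55 RPKM against 2.5 and 3.57 RPKM and was not called (adjusted p = 0.21). Ly86, a partner of the Toll-like protein Cd180, was at 0.055 and 0.199 RPKM in KL, from 2 and 6 reads, and at 2.56 and 1.64 RPKM in KLG4. It passed the filter only through KLG4 and so had to differ (log2 fold change 3.32, limma adjusted p = 0.0029). Lbp, a carrier of lipopolysaccharide, rose as well (0.94, limma adjusted p = 0.024). Cd36, a scavenger receptor that works with Tlr2 and Tlr6, fell from 55.6 and 78.5 RPKM to 27.8 and 29.9 RPKM (log2 fold change -1.19, limma adjusted p = 0.0062). In TRMs Cd36 was at 34.7 and 52.7 RPKM in KL and at 116.8 and 75.4 RPKM in KLG4 and was not called (log2 fold change 1.13, limma adjusted p = 0.088).

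Of the 4 chaperones and transporters only Unc93b1, which carries the nucleic acid receptors to endosomes, was called in tumor cells, at 5.16 and 6.76 RPKM in KL and 16.9 and 16.6 RPKM in KLG4 (log2 fold change 1.49, limma adjusted p = 0.0022). In TRMs Unc93b1 was at 35.0 and 45.3 RPKM in KL and at 80.1 and 74.2 RPKM in KLG4, and was not called (log2 fold change 0.95, limma adjusted p = 0.061). Of the other adaptors, Pik3ap1, which encodes BCAP and restrains Toll-like receptor signals in macrophages, was the 1 called in tumor cells (log2 fold change 4.32, limma adjusted p = 0.0019). Pik3ap1 was also among the 2 pathway genes with an unadjusted p under 0.05 in MDMs, at 341.6 and 240.0 RPKM in KL and 514.7 and 480.2 RPKM in KLG4 (log2 fold change 0.80, limma adjusted p = 0.68). Ticam1 and Tirap were not called, at 1.53 and 1.66 against 1.52 and 1.68 RPKM and at 1.89 and 2.03 against 1.78 and 1.94 RPKM.

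Of the 14 kinases and ubiquitin ligases downstream of the adaptors, 1 was called higher in tumor cells, against 20.6% of all genes. That gene was Irak2, at 6 and 6.47 RPKM in KL and at 15.8 and 16.7 RPKM in KLG4 (log2 fold change 1.37, limma adjusted p = 0.0013). Irak4, the first kinase bound by Myd88, was at 12.1 and 12 RPKM against 9.44 and 9.12 RPKM and was not called (adjusted p = 0.067). Ikbke, a kinase related to Tbk1, had the highest fold change of the pathway genes in TRMs and in MDMs and was called in neither. It was at 1.29 and 1.10 RPKM in KL and 2.48 and 3.58 RPKM in KLG4 in TRMs (log2 fold change 1.25, limma adjusted p = 0.099). In MDMs it overlapped between genotypes, at 22.3 and 5.33 RPKM against 21.6 and 34.0 RPKM (log2 fold change 1.30, limma adjusted p = 0.68).

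Nfkb1, the gene of the NF-kappaB subunit p50, was the pathway gene called in both tumor cells and TRMs. In TRMs it was at 7.35 and 7.51 RPKM in KL and at 18.6 and 16.4 RPKM in KLG4 (log2 fold change 1.22, SE 0.19, limma adjusted p = 0.047). This was 0.84 above the median of all genes there, and the call was close to the threshold of 0.05. Sex of the source animals and genotype cannot be told apart in TRMs. Tumor cells had 4.02 and 5.59 RPKM against 15.6 and 17.7 RPKM (1.79, limma adjusted p = 0.0020), and in MDMs at 39.6 and 24.5 RPKM against 58.5 and 61.2 RPKM (0.94, limma adjusted p = 0.68). Irf5 and Irf7, which act downstream of the endosomal receptors, rose in tumor cells (log2 fold change 0.74 for each, limma adjusted p = 0.0096 and 0.015). Irf3, which acts downstream of Ticam1, fell from 10.8 and 9.74 RPKM to 5.98 and 5.58 RPKM (-0.82, limma adjusted p = 0.0093).

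Of the 5 genes that restrain the pathway, 3 rose in tumor cells, against 20.6% of all genes. Tnfaip3, the gene of the ubiquitin-editing enzyme A20, was at 27.1 and 30.4 RPKM in KL and at 187.3 and 186.7 RPKM in KLG4 (log2 fold change 2.70, limma adjusted p = 0.00017). Irak3, an inhibitory member of the IRAK family, had a log2 fold change of 2.5 (limma adjusted p = 0.0042). Nfkbia, which holds NF-kappaB in the cytoplasm, had 1.44 (limma adjusted p = 0.00059). In TRMs and MDMs none of these 3 was called, and in TRMs Nfkbia overlapped between genotypes at 268.7 and 150.5 RPKM against 192.2 and 237.1 RPKM.

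**Figure D5:**
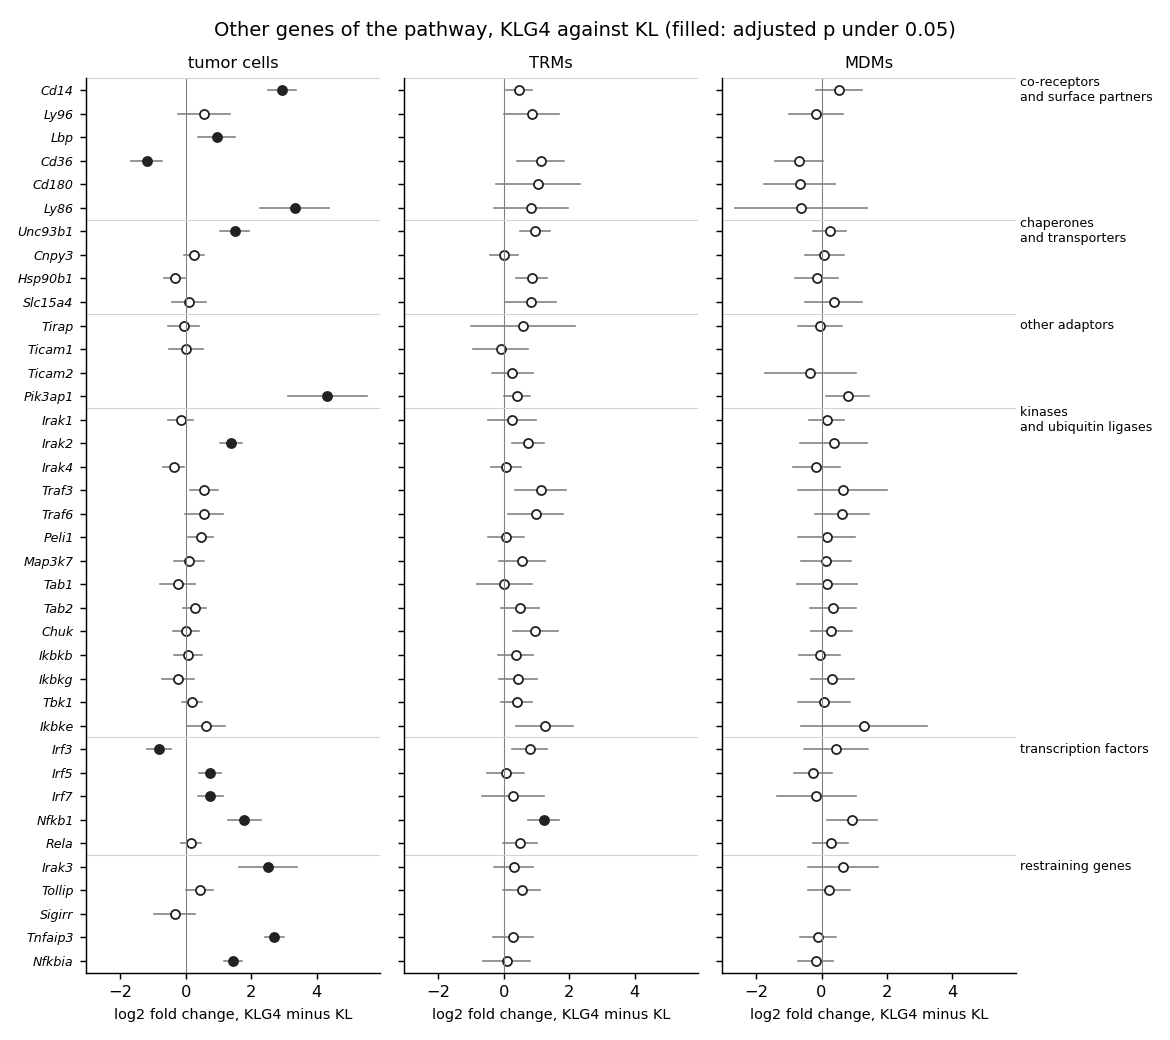
Log2 fold change of KLG4 over KL for the other genes of the pathway that were tested, with 1 panel per population, grouped by role. Lines are 95% confidence intervals of limma and filled circles have an adjusted p under 0.05. There are 14 filled circles in tumor cells, 1 in TRMs and 0 in MDMs.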

How the data were processed

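The members and the pathway and marker lists were chosen with earlier results of these data known. The deposited tables hold RPKM per gene and library, which the authors made with Trim Galore 0.6.4, HISAT2 2.0.5, featureCounts 2.0.0 and Ensembl annotation of GRCm38, without strand. Columns with the authors' own fold changes and p-values were not used, and 5 samples of other populations were not analysed. A further engineered allele shared by both genotypes is not reported here. Whole reads were recovered from the RPKM steps and gene lengths (100% of the values checked came within 0.05 of a whole number), and depth is the sum of those reads. Of the read counts below 30, 17.4% to 32.5% per library were odd. Whether both mates of a pair were counted was not tested.

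Within each table, genes that reached 1 RPKM in 2 or more of the 4 libraries were tested on log2(RPKM + 0.1) with limma 3.58.1 in R 4.3.3, with a mean-variance trend, two-sided, and Benjamini-Hochberg adjustment over the table. The fit was tested on simulated data. All 10 members are named, with pathway genes called in TRMs or MDMs and the 3 with the largest changes per population. Other pathway and marker genes named were picked after their values were seen. Alternatives were pseudocounts of 1 and 0.01, no filter, quantile scaling, totals without mitochondrial genes, no trend, a replicate block, each library left out, and limma-voom on recovered reads. Leaving out nuclear copies of mitochondrial genes as well was chosen after seeing the data. Promoter sequences and their coordinates are from RefSeq (GRCm38.p6), and 8 of the 10 members matched. kappaB motifs have 10 letters and were searched on both strands.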

Additional observations from a re-analysis of the deposited data

How the results depend on the processing

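In tumor cells the number of members called stayed at 6 except in the fit without a filter (9) and when 1 library was left out (1 to 6). Only 3 members passed the filter once a KLG4 library was left out. Calls over all genes there ranged from 1843 to 7243 with a library left out, lowest without either KLG4 library. In TRMs the 198 calls over all genes became 490 with a pseudocount of 1, 122 with 0.01, 120 without a filter, 60 with quantile scaling, 67 outside mitochondrially encoded genes, 29 outside nuclear copies as well, 12 without the trend, 1937 with limma-voom and 212 to 2631 with a library left out, highest without KL replicate 2. The replicate block gave 470. Members called there were 2 with limma-voom and 0 to 2 with a library left out. In MDMs leaving out a library gave 0 to 2592 calls and 0 to 3 members, highest without KL replicate 1. The cause of these shifts was not tested.

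Signs turned in TRMs and MDMs where differences were near 0. In TRMs quantile scaling gave -0.23 for Tlr2, -0.16 for Tlr13 and -0.23 for Myd88, and totals outside mitochondrial genes and copies gave -0.30, -0.11 and -0.24 (Tlr2 was -0.053 outside mitochondrially encoded genes). With a library left out Myd88 ran from -0.14 to 0.42. In MDMs, outside mitochondrial genes and copies Tlr1 was at -0.027, Tlr2 at -0.0116 and Tlr7 at -0.0469. Tlr7 was at -0.0163 outside mitochondrially encoded genes and at -0.0004 with a pseudocount of 1, and Tlr8 at 0.0474 with quantile scaling and 0.0465 with limma-voom. With a library left out the ranges were -0.21 to 0.27 for Tlr1, -0.11 to 0.21 for Tlr2, -0.26 to 0.28 for Tlr7, -0.80 to 0.65 for Tlr8 and -0.25 to 0.0598 for Myd88. In tumor cells none of the 6 members tested changed sign under these alternatives.

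Replicate numbers share no stated source, and same-numbered libraries deviated together with r = 0.02 in tumor cells, -0.06 in TRMs and 0.05 in MDMs. The replicate block left the members called at 6, 0 and 0. Depth limits Tlr1, Tlr7 and Tlr9 most in tumor cells, where they rest on 0 to 12 reads per KL library.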

Other observations

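Over the 12 libraries, the genes whose log2 levels were most like those of 3 members were sought among 8977 genes tested in all 3 populations, as a description. For Tlr2 these were Arhgdib, Gm21975 and Evi2b, with Pearson r of 1.00 for each to 2 decimals. For Tlr13 they were Trem1, an activating receptor of neutrophils and monocytes (r = 0.99), E230013L22Rik (0.99) and Lilrb4a, an inhibitory receptor of myeloid cells (0.98). For Myd88 they were the retinoic acid receptor gene Rara, the interferon receptor gene Ifnar2 and Trim30a, each with r = 0.98. The libraries fall into populations and share tables, so these values mostly order the populations. Tlr3 was not ranked, since it was not analysed in MDMs.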
